A study of Hydra oligactis with 61 samples.

Results

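The aboral wound was compared at 3 h and at 0 h after a mid-body cut in *Hydra oligactis*. The foot-regenerating (FR) tip is the tissue next to the aboral-facing cut of the upper piece, which would have to form a new foot. The comparison takes 3 FR libraries at 3 h post amputation (hpa) and 4 FR libraries at 0 hpa, 7 of the 61 libraries of the series, chosen by their labels and not by any measured value. All 7 came from the strain Innsbruck 12, were in sequencing batch 1 and had DMSO, the vehicle of the study's drug arm, and no alsterpaullone. The 3 hpa animals stayed in DMSO for 3 h and the 0 hpa animals for 30 s, so time after the cut and time in DMSO cannot be told apart. Each library was made from poly(A) RNA of 30 tissue segments, and the sources differ on the DMSO concentration and on the size of the segment. Each pool mixed animals that would and would not regrow a foot, and the study's notes say that animals were taken from large cultures and allotted at random to biological replicates. Head-regenerating (HR) tips, the oral-facing cut of the lower pieces, had 3 libraries at 3 hpa and 4 at 0 hpa in batch 1 and served as the second wound.

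A *Hydra* polyp is a tube of epithelial cells on either side of a gel-like matrix, the mesoglea, with nerve cells, stinging cells, gland cells and stem cells between them. In animals in general a cut is followed within minutes by stress and MAP kinase signalling, which switches on immediate early genes. These encode short-lived factors of the basic leucine zipper (bZIP) family, such as Fos and Jun, together with phosphatases and Sprouty proteins that dampen the same kinases. Wnt ligands are known in *H. vulgaris* as the signal of the head organizer and as part of the early answer to injury.

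Library totals were 14.9 to 16.6 M counts in FR 3 hpa libraries and 14.7 to 15.4 M counts in FR 0 hpa libraries. Of 23396 transcripts in the table, 17037 had enough counts to be tested. Of these, 2835 carry an annotation in the study's supplementary tables and are called annotated below. Those tables are the only source of names here. A name other than the study's own is the best protein match of another species, and calls follow transcripts, so close copies of a gene may share reads. The first principal component of the 7 libraries held 45.0% of the variance and separated the times, and the second held 18.7% and set the fourth FR 0 hpa library apart. Levels are given in counts-per-million (CPM) after library scaling, in the order of the library numbers, and can be compared between libraries but not between genes.

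At 3 hpa 926 transcripts were higher (5.44% of those tested) and 838 lower (4.92%) than at 0 hpa, at an adjusted p under 0.01. The rises were larger than the falls. Transcripts called higher had a median log2 fold change of 0.59 (quartiles 0.36 and 1.10) and those called lower a median of -0.40 (quartiles -0.58 and -0.29). Of the transcripts called higher, 261 changed at least 2-fold, 98 at least 4-fold and 45 at least 8-fold, against 77, 11 and 4 of those called lower. The values of both groups did not overlap for 888 of the 926 and 797 of the 838, where 11.1% and 12% of all tested transcripts were apart in the same directions. A protein name is carried by 35 of the 98 rises of at least 4-fold and 0 of the 11 falls, against 2436 of the 17037 tested transcripts. The farthest fall, R038238c0g2_i03, averaged 0 CPM at 3 hpa and 2.37 ± 2.71 CPM at 0 hpa, and its groups overlapped. The counts depend on how the spread is estimated. Fitted to the 7 libraries alone, the same test called 472 higher and 207 lower, of which 466 and 201 were among the calls above.

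**Figure D1:**
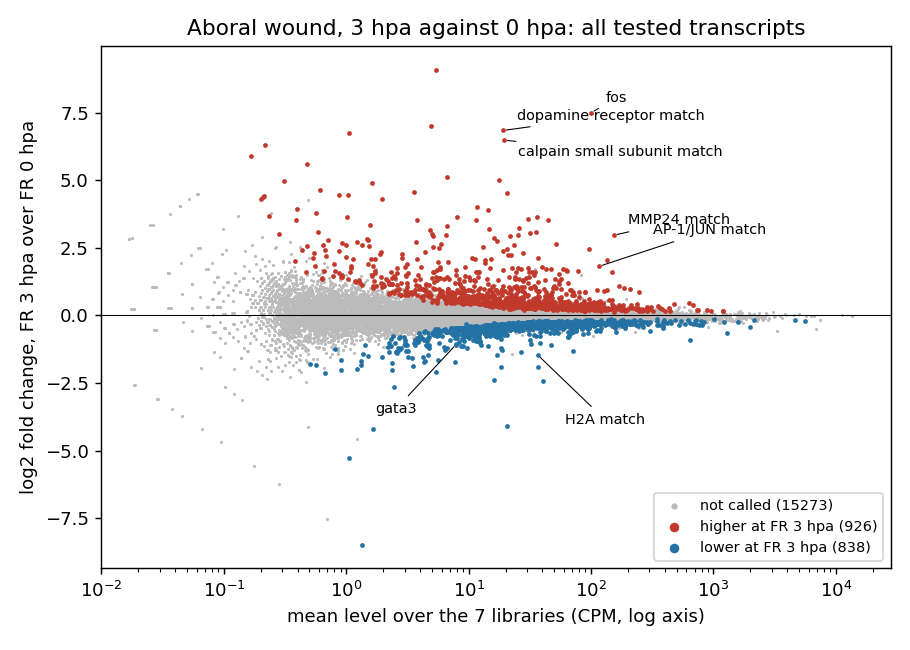
Each point is a transcript, with its mean level over the 7 libraries in CPM on a log axis and its log2 fold change at FR 3 hpa over FR 0 hpa. Of 17037 transcripts, 926 (red) were called higher and 838 (blue) lower, and the red points reach much farther from 0 than the blue ones.

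Most of the bZIP factors were higher. Of 9 members tested, 6 were higher and 0 lower, with a median log2 fold change of 1.35, against 0.02 over the annotated transcripts tested. Of the annotated transcripts 12.6% were higher and 10.6% lower, which is the background for all lists below. *fos* (R029832c0g1_i01), which encodes a partner of Jun in the AP-1 complex, had 234.5, 235.0 and 223.5 CPM in FR 3 hpa libraries, against 1.32, 0.813, 1.58 and 1.38 CPM in FR 0 hpa libraries. No library at 3 hpa came near the range at 0 hpa, and the change was 180-fold (log2 fold change 7.49 ± 0.32, adjusted p = 1.78e-22). A transcript matching AP-1/JUN (R037979c0g1_i01) had 177.9, 214.1 and 193.8 CPM in FR 3 hpa libraries and 56.1, 53.7, 50.6 and 62.1 CPM in FR 0 hpa libraries. It had the smallest p of all tested transcripts (log2 fold change 1.81 ± 0.07, adjusted p = 1.14e-24). The transcript that the study calls *jun* (R013156c0g1_i01) did not follow, with 65.2, 71.4 and 71.4 CPM in FR 3 hpa libraries and 74.95, 74.2, 78.4 and 72.1 CPM in FR 0 hpa libraries (log2 fold change -0.11 ± 0.06, adjusted p = 0.2).

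*creb* (R027355c0g1_i03), a bZIP factor activated by cyclic AMP and calcium signalling, reached 35.03, 35.6 and 38.8 CPM in FR 3 hpa libraries, against 13.6, 13.2, 14.2 and 16.1 CPM in FR 0 hpa libraries (log2 fold change 1.35 ± 0.10, adjusted p = 2.75e-15). A match of *ces-2* (R029055c0g1_i01), known in *Caenorhabditis elegans* as a regulator of cell death in a nerve lineage, had 38.7, 49.5 and 39.0 CPM in FR 3 hpa libraries and 10.1, 13.1, 13.6 and 13.9 CPM in FR 0 hpa libraries (log2 fold change 1.74 ± 0.12, adjusted p = 3.12e-15). Smaller rises were those of a C/EBPβ match (log2 fold change 0.77 ± 0.10, adjusted p = 5.29e-08) and a CREB3L3 match (log2 fold change 0.40 ± 0.06, adjusted p = 7.73e-06). Matches of kayak, the *Drosophila* Fos (log2 fold change 0.21 ± 0.13, adjusted p = 0.281), and of VBP (adjusted p = 0.28) did not pass. The 4 largest of these rises passed under every alternative setting tried.

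**Figure D2:**
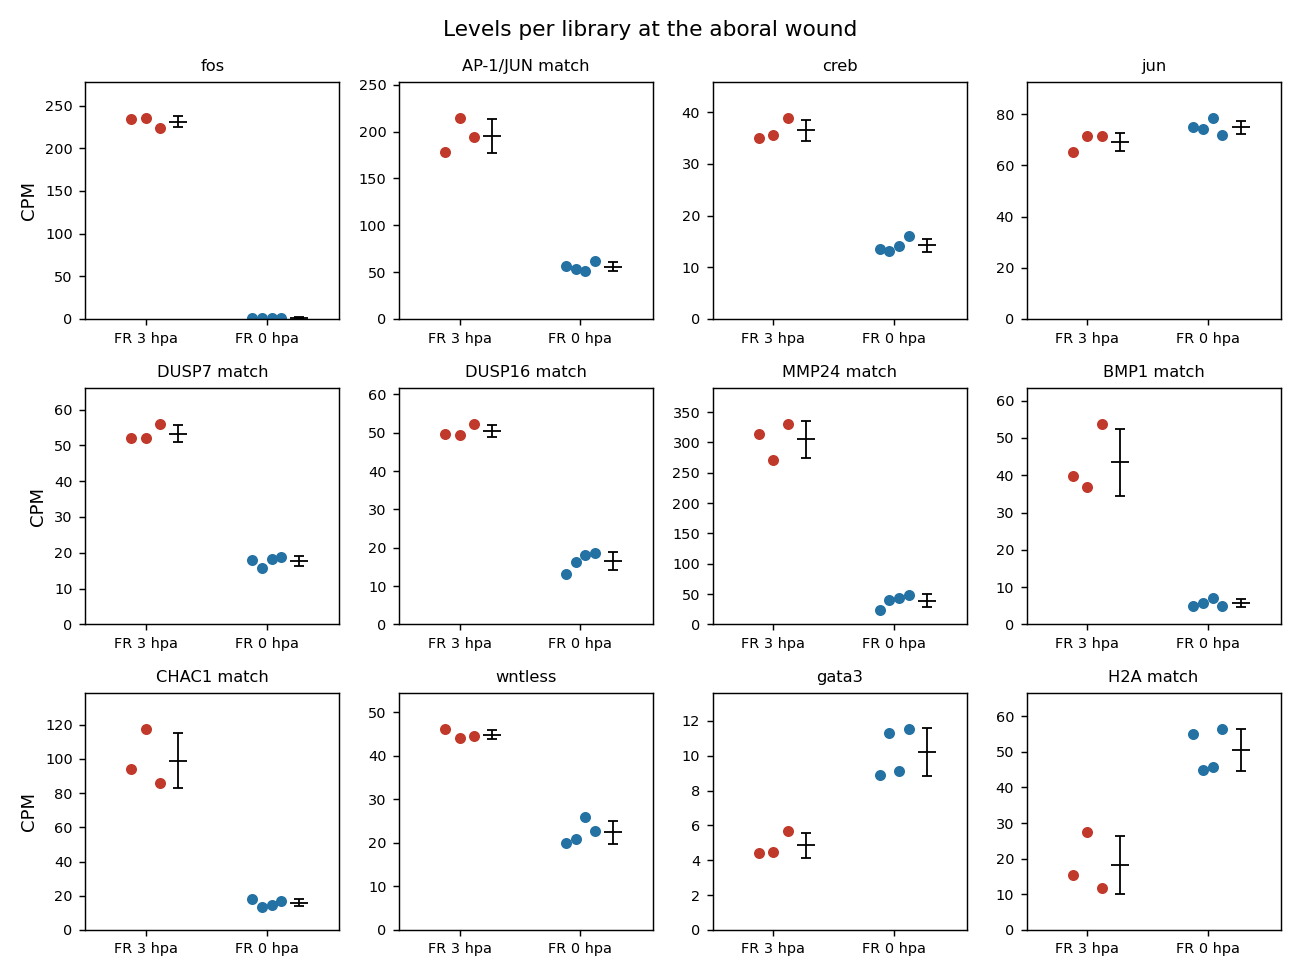
Each point is 1 library, with FR 3 hpa (red, n = 3) left of FR 0 hpa (blue, n = 4), its level in CPM on the y axis, and the mean and SD beside the points. The groups are apart for every gene shown, *jun* included, with *gata3* and the H2A match lower at 3 hpa and the mean of *jun* 69.3 CPM at 3 hpa against 74.9 CPM at 0 hpa, a difference that did not pass the test.

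In the list of MAP kinases and their regulators 5 of 12 tested members were higher (41.7%) and 2 lower (16.7%), with a median of 0.03. Matches of the phosphatases DUSP7 and DUSP16, which remove phosphate from MAP kinases, changed about alike. DUSP7 (R029157c0g1_i01) had 51.9, 51.9 and 56.0 CPM in FR 3 hpa libraries and 17.9, 15.7, 18.4 and 18.7 CPM in FR 0 hpa libraries (log2 fold change 1.59 ± 0.09, adjusted p = 8.87e-19). DUSP16 (R028789c0g1_i03) had 49.7, 49.3 and 52.3 CPM in FR 3 hpa libraries, against 13.2, 16.3, 18.0 and 18.6 CPM in FR 0 hpa libraries (log2 fold change 1.61 ± 0.11, adjusted p = 3.66e-16). A sprouty2 match, a feedback inhibitor of receptor tyrosine kinases, averaged 20.1 ± 1.198 CPM at 3 hpa and 10.4 ± 2.09 CPM at 0 hpa (log2 fold change 0.95 ± 0.13, adjusted p = 2.31e-07). MKNK1, a kinase downstream of MAP kinases, was higher by less (log2 fold change 0.46 ± 0.06, adjusted p = 6.24e-08), as was R037433c0g1_i03, which the tables match to both NAA20 and DUSP10 (log2 fold change 0.51 ± 0.06, adjusted p = 9.79e-09). The 2 lower members were matches of DUPD1 (log2 fold change -0.43 ± 0.10, adjusted p = 0.00125) and MAP3K3 (log2 fold change -0.24 ± 0.06, adjusted p = 0.00573), and neither passed with the 7 libraries alone. A match of a further phosphatase, DUSP22, did not pass (log2 fold change 0.03 ± 0.13, adjusted p = 0.929). The TNF receptor list had 1 of 10 members higher (10%), the receptor TNFRSF16 (log2 fold change 0.66 ± 0.11, adjusted p = 2.21e-05), and 1 lower (10%), the adaptor TRAF4 (log2 fold change -1.11 ± 0.27, adjusted p = 0.00285).

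Of 24 tested members of the Wnt pathway, 3 were higher and 1 lower, with a median of 0.22. The share higher was 12.5%, against 12.6% over the annotated transcripts, which leave out *wntless* and *tle3*. The clearest rise was that of *wntless* (R038745c0g1_i02), the carrier that takes Wnt ligands to the cell surface, with 46.0, 44.1 and 44.4 CPM in FR 3 hpa libraries and 20.0, 20.9, 25.9 and 22.8 CPM in FR 0 hpa libraries (log2 fold change 1.00 ± 0.10, adjusted p = 1.65e-10). *tle3*, a corepressor that binds TCF, was slightly higher (log2 fold change 0.27 ± 0.05, adjusted p = 1.52e-04), and so was a match of the receptor FZD8 (log2 fold change 0.53 ± 0.12, adjusted p = 7.36e-04), while FZD5 was lower (log2 fold change -0.41 ± 0.11, adjusted p = 0.00649). Both receptor calls were lost with the 7 libraries alone. *tcf*, the transcription factor of the pathway, averaged 66.6 ± 4.77 CPM at 3 hpa and 58.8 ± 5.07 CPM at 0 hpa (log2 fold change 0.18 ± 0.07, adjusted p = 0.0876), and the scaffold gene *axin1* 30.7 ± 1.40 and 28.1 ± 2.82 CPM (log2 fold change 0.13 ± 0.08, adjusted p = 0.308).

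The Wnt ligands named in the study were near the limit of detection. *wnt9/10c* (R035762c0g1_i01) had 26 counts in all over the 3 FR 3 hpa libraries, against 2 over the 4 FR 0 hpa libraries, or 0.195, 0.583 and 0.802 CPM and 0.0659, 0.0677, 0 and 0 CPM. The ratio of the pooled counts per library total was 16.6 (exact 95% interval 4.16 to 144, for counting error only), and the adjusted p was 0.0115. All 3 values at 3 hpa lay above those at 0 hpa, and the gene missed the threshold here, but it passed with all 7 FR 0 hpa libraries and without the first listed FR 3 hpa library. *wnt3* had 23 counts over FR 3 hpa libraries and 10 over FR 0 hpa libraries, and the groups overlapped (log2 fold change 1.47 ± 0.74, adjusted p = 0.173). *wnt7* had 2 counts at 3 hpa and 7 counts at 0 hpa, a ratio of 0.365 (exact 95% interval 0.037 to 1.92, adjusted p = 0.666). Neither passed the test, and so few counts limit what could be detected. *brachyury1*, a T-box factor that responds to Wnt, averaged 6.49 ± 0.552 CPM at 3 hpa and 7.59 ± 0.737 CPM at 0 hpa (log2 fold change -0.23 ± 0.20, adjusted p = 0.484). The secreted antagonist *sFRP* had no count at 3 hpa and at most 1 count in a library at 0 hpa.

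Other signalling families had single members that moved. In the TGF-β and BMP list 2 of 19 tested members were higher (10.5%, near the background of 12.6%) and 1 lower (5.26%, median 0.16). BMP1 (R038495c0g2_i08), a metalloproteinase that trims collagen and frees BMP ligands, had 39.8, 36.9 and 53.8 CPM in FR 3 hpa libraries and 4.81, 5.82, 7.07 and 4.93 CPM in FR 0 hpa libraries (log2 fold change 2.94 ± 0.17, adjusted p = 3.45e-18). The receptor match ACVR2A was higher (log2 fold change 0.89 ± 0.09, adjusted p = 1.94e-10) and GDF8, a ligand known in mammals as myostatin, was lower (log2 fold change -1.08 ± 0.27, adjusted p = 0.00299), though GDF8 passed in only 2 of the 7 fits that left out 1 library. Among FGF ligand matches 2 of 8 tested were higher (25%). FGF12, a match of the intracellular FGF group, rose to 56.8, 55.2 and 62.3 CPM in FR 3 hpa libraries, against 23.8, 30.2, 31.5 and 31.2 CPM in FR 0 hpa libraries (log2 fold change 0.99 ± 0.09, adjusted p = 1.29e-11). An FGF7 match was higher at a low level (log2 fold change 1.64 ± 0.45, adjusted p = 0.00771). The FGF7 call was lost with the 7 libraries alone and in 5 of the 7 fits that left out 1 library. Of 10 FGF receptor matches, R033445c0g1_i01 was higher (log2 fold change 0.66 ± 0.13, adjusted p = 1.44e-04) and an FGFR3 match lower (log2 fold change -0.36 ± 0.06, adjusted p = 4.28e-06). The call of R033445c0g1_i01 was lost with the 7 libraries alone. In the Notch and hedgehog list 1 of 5 was lower, a match of the Notch target HES (log2 fold change -0.82 ± 0.20, adjusted p = 0.00245), a call that was lost with the 7 libraries alone.

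The 12 largest named rises were *fos* and 11 transcripts outside the bZIP family. A match of dopamine receptor 4 (R030089c1g1_i01), a G protein-coupled receptor, had 43.0, 43.2 and 45.6 CPM in FR 3 hpa libraries and 0.0659, 0.542, 0.315 and 0.592 CPM in FR 0 hpa libraries (log2 fold change 6.84 ± 0.35, adjusted p = 1.29e-19). Calpain small subunit 1 (R029533c1g1_i01), in mammals the calcium-binding partner of the calpain proteases, had 36.1, 56.2 and 41.4 CPM in FR 3 hpa libraries, against 0.395, 0.542, 0.252 and 0.789 CPM in FR 0 hpa libraries (log2 fold change 6.48 ± 0.42, adjusted p = 1.46e-16). Both were below 1 CPM in every 0 hpa library. A PSMD10 match (R030836c0g1_i01), in mammals a chaperone of proteasome assembly, averaged 39.6 ± 7.37 CPM at 3 hpa and 1.24 ± 0.542 CPM at 0 hpa (log2 fold change 5.00 ± 0.28, adjusted p = 2.74e-18).

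Of 17 tested transcripts matching TMEM175, a potassium channel of endosomes and lysosomes, 3 were higher and 0 lower. Over the annotated transcripts 12.6% were higher and 10.6% lower, and this family was singled out after its values were seen. R036075c0g1_i01 had 70.0, 61.4 and 95.4 CPM in FR 3 hpa libraries and 4.02, 6.43, 7.32 and 6.38 CPM in FR 0 hpa libraries (log2 fold change 3.64 ± 0.23, adjusted p = 1.46e-16). R055112c0g1_i01 averaged 72.3 ± 9.77 CPM at 3 hpa and 8.46 ± 1.84 CPM at 0 hpa (log2 fold change 3.09 ± 0.18, adjusted p = 5.38e-18). R028692c0g2_i01 averaged 25.2 ± 5.70 and 1.54 ± 0.389 CPM (log2 fold change 4.03 ± 0.25, adjusted p = 7.92e-17). The median over the 17 was 0.19, and the 14 matches that did not pass ranged from -2.65 to 1.84, with both ends below 1 CPM in every library. In each of the 3, the last listed FR 3 hpa library had the highest value, which holds for the MMP16 and BMP1 matches as well.

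Papilin, a matrix glycoprotein with protease inhibitor domains, had 2 matching transcripts, one with 59.5, 37.6 and 60.7 CPM in FR 3 hpa libraries and 5.86, 8.20, 5.17 and 3.16 CPM in FR 0 hpa libraries (R038183c1g9_i01, log2 fold change 3.23 ± 0.19, adjusted p = 1.34e-17). The other averaged 23.8 ± 7.09 CPM at 3 hpa and 2.04 ± 0.642 CPM at 0 hpa (R016351c0g1_i01, log2 fold change 3.54 ± 0.28, adjusted p = 1.39e-13). In both, the FR 3 hpa library listed in the middle was the lowest of its group. A collagen VI α6 match had a low level at both times (4.30 ± 1.66 CPM at 3 hpa and 0.210 ± 0.215 CPM at 0 hpa, log2 fold change 4.29 ± 0.56, adjusted p = 1.07e-07). A match of the ubiquitin ligase MARCHF2 (log2 fold change 3.65 ± 0.57, adjusted p = 4.08e-06) and one of the prolactin-releasing peptide receptor (log2 fold change 3.18 ± 0.24, adjusted p = 4.28e-14) complete the 12 largest named rises, *fos* included.

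Transcripts with no annotation moved as far. R026256c0g1_i01 had 2.14, 1.86 and 3.33 CPM in FR 3 hpa libraries and 1 count in all FR 0 hpa libraries together, a ratio of 152 (exact 95% interval from 26.8). R019711c0g1_i01 averaged 3.62 ± 0.982 and 0.116 ± 0.113 CPM (log2 fold change 4.90 ± 0.65, adjusted p = 1.46e-07). On the other side R036190c0g1_i01 had 2.21, 2.21 and 1.67 CPM in FR 3 hpa libraries, against 35.3, 34.3, 24.5 and 44.4 CPM in FR 0 hpa libraries (log2 fold change -4.09 ± 0.47, adjusted p = 8.96e-09). R035796c23g1_i01 fell to 2 counts at 3 hpa, against 111 counts at 0 hpa, a ratio of 0.023 (exact 95% interval 0.00275 to 0.0851, adjusted p = 6.68e-06). What these transcripts encode is not known here.

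Of 36 metalloproteinase matches 5 were higher (13.9%, close to the background of 12.6%) and 2 lower (median 0.01), and with the 7 libraries alone 3 were higher and 1 lower. MMP24 (R039030c1g1_i01), a matrix metalloproteinase anchored in the membrane in mammals, had 314.1, 270.9 and 330.5 CPM in FR 3 hpa libraries and 24.4, 40.6, 43.0 and 48.2 CPM in FR 0 hpa libraries (log2 fold change 2.96 ± 0.17, adjusted p = 7.38e-18). MMP16 (R038159c1g2_i01), of the same membrane-anchored group, had 63.2, 54.1 and 82.6 CPM in FR 3 hpa libraries and 17.6, 24.9, 18.4 and 16.1 CPM in FR 0 hpa libraries (log2 fold change 1.79 ± 0.19, adjusted p = 4.62e-10). An MMP14 match (log2 fold change 0.26 ± 0.07, adjusted p = 0.00421) and the astacin matches nas-4 (log2 fold change 0.62 ± 0.15, adjusted p = 0.00245) and nas-13 (log2 fold change 0.79 ± 0.09, adjusted p = 1.06e-09) were higher by less, and 2 matches of low choriolytic enzyme, a fish hatching protease, were lower (log2 fold change -0.47 ± 0.09, adjusted p = 2.16e-04; log2 fold change -0.55 ± 0.12, adjusted p = 0.00132).

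In the list of matrix proteins, which does not hold the papilin and collagen VI α6 matches called higher above, 0 of 25 tested members were higher. In the same list 3 were lower (12%, near the background of 10.6%), and the median was -0.07. Collagen IV α1, a basement membrane collagen, averaged 298.7 ± 18.7 CPM at 3 hpa and 383.0 ± 39.5 CPM at 0 hpa (log2 fold change -0.36 ± 0.09, adjusted p = 0.00235). Fibrillin-1, a microfibril protein, averaged 456.2 ± 26.6 and 576.5 ± 60.8 CPM (log2 fold change -0.34 ± 0.08, adjusted p = 0.0015). Hemicentin-1 was also lower (log2 fold change -0.53 ± 0.13, adjusted p = 0.00289). All 3 falls were small, and 1 of them passed when the 7 libraries were fitted alone. Without the FR 3 hpa library listed in the middle, or with all 7 FR 0 hpa libraries, 3 members of this list were higher and 3 lower.

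Developmental transcription factors moved both ways. Of 43 tested, 10 were higher (23.3%, against a background of 12.6%) and 3 lower (6.98%, against 10.6%), with a median of 0.00. The homeobox gene *dlx2* (R029042c0g1_i02), one of the study's foot-specific genes, had 6.89, 5.83 and 5.68 CPM in FR 3 hpa libraries and 2.04, 2.44, 2.08 and 3.09 CPM in FR 0 hpa libraries (log2 fold change 1.34 ± 0.26, adjusted p = 1.90e-04). *dlx2* was also called higher at the oral face, with 8.65 ± 1.79 CPM at HR 3 hpa and 3.88 ± 0.552 CPM at HR 0 hpa (log2 fold change 1.15 ± 0.23, adjusted p = 4.06e-04). The difference between its changes at both faces did not pass (adjusted p = 0.954). *dll1* (R017255c0g1_i02), which the tables match to the homeobox protein DLX-1, averaged 5.82 ± 0.751 CPM at FR 3 hpa and 2.95 ± 0.896 CPM at FR 0 hpa (log2 fold change 0.98 ± 0.23, adjusted p = 0.00148), while *dlx1* (R035295c0g1_i01) averaged 36.9 ± 2.62 and 37.9 ± 3.05 CPM (log2 fold change -0.04 ± 0.08, adjusted p = 0.804). The *dll1* call was lost with the 7 libraries alone. Elk-1, an ETS factor that MAP kinases phosphorylate in mammals, was higher (log2 fold change 0.87 ± 0.11, adjusted p = 4.62e-08), as were *foxl1* (log2 fold change 0.51 ± 0.08, adjusted p = 1.33e-06), a RUNX match (log2 fold change 0.95 ± 0.23, adjusted p = 0.00195), a COUP factor 2 match (log2 fold change 1.15 ± 0.28, adjusted p = 0.0025) and an NR2E match (log2 fold change 0.69 ± 0.10, adjusted p = 5.19e-07). The lower members were *gata3*, an HHEX match (log2 fold change -0.66 ± 0.12, adjusted p = 4.43e-05) and a SOX-14 match (log2 fold change -0.54 ± 0.10, adjusted p = 5.56e-05). *gata3* (R023611c0g1_i01), a zinc finger factor and likewise one of the study's foot-specific genes, had 4.42, 4.49 and 5.68 CPM in FR 3 hpa libraries and 8.89, 11.3, 9.15 and 11.5 CPM in FR 0 hpa libraries, with no overlap (log2 fold change -1.07 ± 0.15, adjusted p = 5.11e-07).

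The study's foot-specific transcripts were higher about as often as the annotated transcripts, and more often than all transcripts tested. Of 404, 289 had enough counts to be tested, and 32 were higher (11.1%) and 8 lower (2.77%), with a median of 0.15, where 12.6% and 10.6% of all annotated transcripts tested were called. Some foot-specific transcripts are not among the annotated ones. Over all transcripts tested 5.44% were higher and 4.92% lower. At the oral face 84 were higher and 5 lower, with a median of 0.65, where 15.2% of the annotated transcripts were higher and 6.07% lower. The difference between these lists of values was not tested. This set was chosen by the study from other libraries of the series together with the 0 hpa libraries used here, so its direction is no independent evidence. Besides *dlx2* and the dopamine receptor match, the higher ones held a match of a pyroglutamylated RFamide peptide receptor (log2 fold change 1.46 ± 0.13, adjusted p = 8.44e-12) and R038612c0g1_i01, which has no protein name (30.7 ± 5.93 CPM at 3 hpa and 2.06 ± 0.713 CPM at 0 hpa, log2 fold change 3.89 ± 0.19, adjusted p = 1.08e-20). *nk2*, a homeobox gene of the foot, averaged 4.09 ± 0.267 and 2.64 ± 0.541 CPM (log2 fold change 0.63 ± 0.21, adjusted p = 0.0309), *tld* 1.77 ± 0.418 and 2.58 ± 0.854 CPM (log2 fold change -0.53 ± 0.40, adjusted p = 0.405) and the receptor gene *npyr4* 5.55 ± 1.06 and 4.89 ± 0.635 CPM (log2 fold change 0.18 ± 0.20, adjusted p = 0.595), and none of them passed. *fd4* and *kiaa1958* were at or below 0.18 CPM in every library. Of the 28 transcripts that the study names, 9 were higher (32.1%) and 2 lower (7.14%), the others called being *aatf* (log2 fold change 0.20 ± 0.05, adjusted p = 0.0024), *rfx1* (log2 fold change 0.38 ± 0.06, adjusted p = 8.76e-06) and *opn4a*, an opsin gene (log2 fold change -0.83 ± 0.16, adjusted p = 1.13e-04). The annotated transcripts leave out *aatf*, *rfx1*, *tle3* and *wntless*. The study named some of the 28, such as *fos* and *creb*, from an analysis that included these libraries, so their share is no independent evidence.

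Cell cycle and histone transcripts were lower throughout. Of 17 tested, 14 were lower (82.4%, against a background of 10.6%) and 0 higher, all 17 had a negative log2 fold change, and the median was -0.42. Summed over the list the level was 891.5 to 989.1 CPM in FR 3 hpa libraries and 1205 to 1323 CPM in FR 0 hpa libraries. RRM1, the large subunit of the reductase that makes deoxynucleotides, had 131.7, 137.2 and 125.7 CPM in FR 3 hpa libraries and 175.7, 164.8, 168.2 and 173.4 CPM in FR 0 hpa libraries (log2 fold change -0.37 ± 0.05, adjusted p = 4.81e-07). The replication licensing factor MCM2 averaged 75.2 ± 3.59 CPM at 3 hpa and 101.9 ± 6.62 CPM at 0 hpa (log2 fold change -0.44 ± 0.07, adjusted p = 3.32e-06). The mitotic genes PLK1 (log2 fold change -0.42 ± 0.06, adjusted p = 2.67e-06) and cyclin B (log2 fold change -0.42 ± 0.06, adjusted p = 4.28e-06) changed by similar amounts. In these pieces fewer dividing cells and less RNA per cell cannot be told apart.

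Core histones fell farther but varied more. H2A (R060965c0g1_i01) had 15.5, 27.5 and 11.7 CPM in FR 3 hpa libraries and 54.9, 45.0, 45.8 and 56.3 CPM in FR 0 hpa libraries (log2 fold change -1.46 ± 0.27, adjusted p = 8.54e-05). H2B (R001784c0g1_i01) had 33.1, 60.0 and 22.4 CPM and 107.8, 82.9, 91.2 and 102.6 CPM (log2 fold change -1.32 ± 0.29, adjusted p = 8.86e-04). In both the FR 3 hpa library listed in the middle was well above the other 2, but below every 0 hpa library. When the 7 libraries were fitted alone 9 members of the list were called, and leaving out 1 library gave 10 to 14. Against a fold of 1.2, and with limma on FPKM, 2 members were called.

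Markers of stem and germ, gland and nerve cells moved by less, with median log2 fold changes of -0.15, -0.07 and -0.11. The nematocyte markers had a median of 0.39. Of 5 stem and germ cell markers 2 were lower (40%, against a background of 10.6%), the PIWI genes PIWIL1 (log2 fold change -0.35 ± 0.05, adjusted p = 9.59e-07) and PIWIL2 (log2 fold change -0.32 ± 0.04, adjusted p = 4.81e-07), and the list summed to 1328 to 1384 CPM in FR 3 hpa libraries and 1571 to 1706 CPM in FR 0 hpa libraries. With the 7 libraries alone 2 of these 5 were lower, with limma on FPKM 1 was, and against a fold of 1.2 0 were. The 15 gland cell markers summed to 2895 to 3134 CPM and 2951 to 3444 CPM, which overlap, and 1 was lower, a chitinase match (log2 fold change -0.31 ± 0.06, adjusted p = 3.84e-04). The 10 nerve cell markers summed to 89.3 to 104.9 CPM in FR 3 hpa libraries and 85.2 to 93.1 CPM in FR 0 hpa libraries, with 0 called. The 5 nematocyte markers, 1 toxin and 4 carbohydrate sulfotransferase matches, summed to 59.9 to 61.2 CPM and 49.8 to 51.8 CPM, which do not overlap. All 5 had a positive log2 fold change, with 0 called by edgeR in the fit used here and 2 at an adjusted p under 0.05. In the nerve, gland and nematocyte lists 1 further marker each had too few counts to be tested. The part that cell composition plays in the other results was not tested.

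Stress and death genes were mixed. In the redox list 1 of 18 tested was higher (5.56%) and 2 lower (11.1%). CHAC1 (R001764c0g1_i01), an enzyme that breaks down glutathione and is induced by amino acid and endoplasmic reticulum (ER) stress in mammals, had 94.0, 117.3 and 85.9 CPM in FR 3 hpa libraries and 18.2, 13.5, 14.7 and 17.0 CPM in FR 0 hpa libraries (log2 fold change 2.64 ± 0.16, adjusted p = 1.51e-17). Of 14 chaperones 0 were higher and 4 lower (28.6%), all foldases or cochaperones of the ER, with the PDIA6 match at 626.4 ± 21.2 CPM at 3 hpa and 782.4 ± 34.8 CPM at 0 hpa (log2 fold change -0.32 ± 0.06, adjusted p = 7.38e-05). Fitted to the 7 libraries alone, 1 of the 14 was lower, the PDIA6 match.

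Of 11 apoptosis genes 3 were higher (27.3%) and 5 lower (45.5%), with a median of -0.12. A caspase-3 match (R033879c0g1_i01), the protease that carries out apoptosis, had 16.6, 15.5 and 14.5 CPM in FR 3 hpa libraries and 4.28, 7.52, 6.94 and 6.58 CPM in FR 0 hpa libraries (log2 fold change 1.30 ± 0.23, adjusted p = 3.21e-05), whereas another caspase-3 match (R004805c0g1_i01) was lower (log2 fold change -0.54 ± 0.15, adjusted p = 0.00744). A match of the survival factor Bcl-2 was higher (log2 fold change 0.71 ± 0.08, adjusted p = 3.35e-09) and the killers BAK (log2 fold change -0.35 ± 0.06, adjusted p = 2.39e-05) and BAX (log2 fold change -0.37 ± 0.10, adjusted p = 0.00878) were lower. API5, an inhibitor of apoptosis, was lower as well (log2 fold change -0.27 ± 0.05, adjusted p = 1.94e-05). Fitted alone, the 7 libraries left 2 higher and 1 lower.

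The remaining lists had few calls. Ribosome and translation genes had 2 of 24 higher (8.33%) and 3 lower (12.5%), of which 0 were called with the 7 libraries alone. Muscle and cytoskeleton genes had 3 of 15 higher (20%) and 1 lower (6.67%), with myophilin, a calponin-like muscle protein, at 90.4 ± 5.54 CPM at 3 hpa and 69.5 ± 2.44 CPM at 0 hpa (log2 fold change 0.38 ± 0.09, adjusted p = 0.00302). Among 24 lectin and immune matches 1 was higher, a thiol reductase of lysosomes (log2 fold change 1.08 ± 0.10, adjusted p = 2.20e-11), and among 25 calcium-binding genes 1 was lower, a CaMK2 match (log2 fold change -0.19 ± 0.05, adjusted p = 0.00958) that did not pass with other library scaling.

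**Figure D3:**
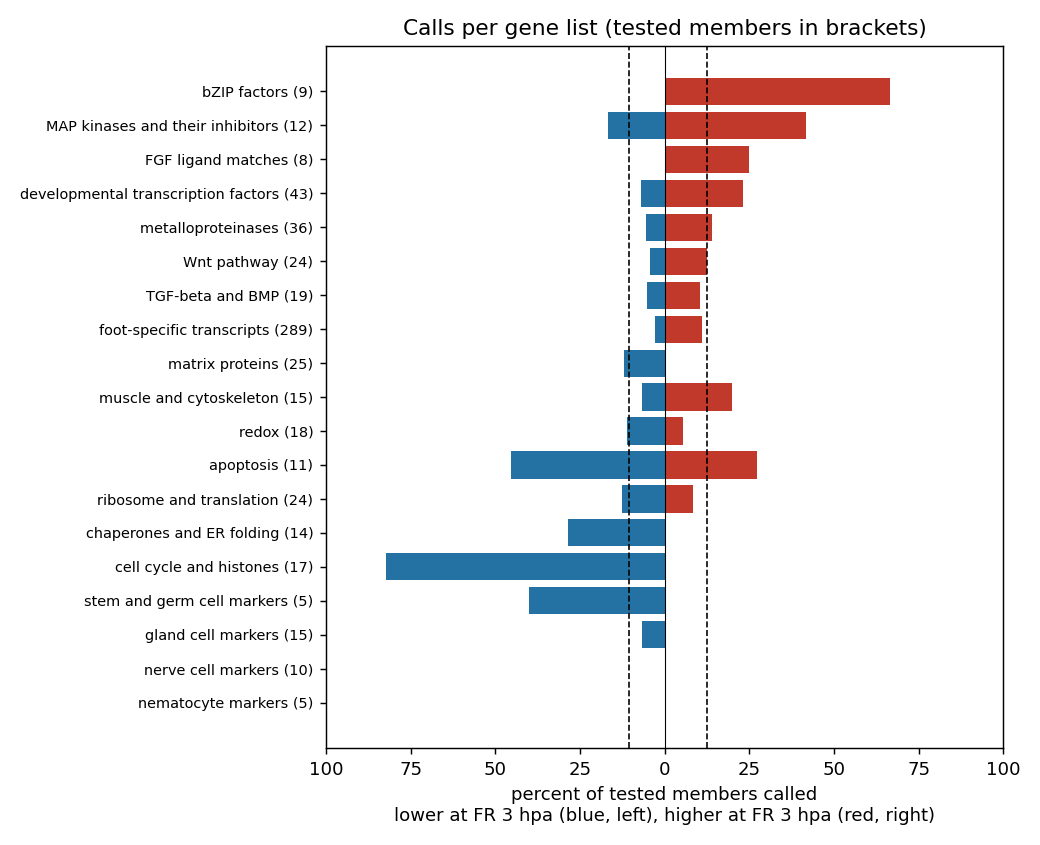
Bars give the percent of each list's tested members (number in brackets) that were lower (blue, left) or higher (red, right) at FR 3 hpa than at FR 0 hpa. The dashed lines mark the 10.6% lower and 12.6% higher over all annotated transcripts tested. The bars that reach farthest past them are the bZIP factors to the right and the cell cycle and histone list to the left.

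The 12 largest named falls were those of H2A, H2B, GDF8, TRAF4 and *gata3*, given above, and 7 others. A match of the adrenocorticotropic hormone receptor, a G protein-coupled receptor, had 0.3899, 0.699 and 0.494 CPM in FR 3 hpa libraries and 1.91, 1.83, 1.96 and 2.04 CPM in FR 0 hpa libraries (log2 fold change -1.85 ± 0.38, adjusted p = 3.82e-04). The thyrotropin-releasing hormone receptor match averaged 1.74 ± 0.279 and 4.34 ± 0.946 CPM (log2 fold change -1.31 ± 0.22, adjusted p = 1.65e-05). The opsin-3 match averaged 1.53 ± 0.316 and 3.50 ± 0.407 CPM (log2 fold change -1.20 ± 0.26, adjusted p = 7.04e-04). Galactose-3-O-sulfotransferase 3, which adds sulfate to sugar chains, had 10.2, 11.8 and 8.83 CPM in FR 3 hpa libraries and 24.8, 22.6, 28.9 and 24.4 CPM in FR 0 hpa libraries (log2 fold change -1.29 ± 0.12, adjusted p = 6.63e-12). EMP1, a membrane protein of epithelia in mammals, averaged 20.2 ± 2.31 CPM at 3 hpa and 41.8 ± 1.67 CPM at 0 hpa (log2 fold change -1.05 ± 0.17, adjusted p = 9.55e-06). A match of the mitochondrial subunit COX1 averaged 14.2 ± 2.12 and 36.5 ± 5.89 CPM (log2 fold change -1.36 ± 0.18, adjusted p = 1.85e-07). A SynDIG1 match averaged 2.29 ± 0.356 and 6.37 ± 1.49 CPM (log2 fold change -1.47 ± 0.35, adjusted p = 0.00177).

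The oral wound answered with many of the same transcripts. At HR 3 hpa 979 transcripts were higher (5.75%) and 3.84% were lower than at HR 0 hpa, in libraries other than those of the aboral fold changes. Both tests share 1 estimate of the spread over 51 libraries, so their calls are not independent. The study's methods describe excising tissue next to both cuts, so FR and HR libraries may hold pieces of the same animals. The fit had no term for such pairs. Of the 926 aboral rises 601 were also called at the oral face, which is 64.9% of the aboral and 61.4% of the oral rises. Of the 838 aboral falls 341 were also called, 40.7% of the aboral and 52.1% of the oral falls. No transcript was called in opposite directions, and 921 of the 926 and 809 of the 838 had the same sign. At the oral face *fos* averaged 146.8 ± 44.9 CPM at 3 hpa and 2.38 ± 0.311 CPM at 0 hpa (log2 fold change 5.95 ± 0.29, adjusted p = 3.76e-20), and the MMP24 match 240.2 ± 63.6 and 42.7 ± 9.94 CPM (log2 fold change 2.49 ± 0.17, adjusted p = 2.66e-15). The cell cycle and histone list had 13 of 17 members lower at the oral face as well.

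The difference between the faces was tested for each transcript, as the aboral change minus the oral change. With edgeR 0 of 17037 passed at an adjusted p under 0.01, while 1305 (7.66%) had an unadjusted p under 0.05. *gata3* came closest. *gata3* averaged 4.86 ± 0.709 CPM at FR 3 hpa and 10.2 ± 1.39 CPM at FR 0 hpa, against 11.04 ± 2.35 CPM at HR 3 hpa and 10.8 ± 1.31 CPM at HR 0 hpa. Its changes differed by -1.10 on the log2 scale (adjusted p = 0.0118). Without the low-count filter, and without the first or the third FR 0 hpa library or the first listed HR 3 hpa library, *gata3* did pass. R033430c0g2_i01 and R041218c0g1_i01 also passed without the low-count filter and without the third FR 0 hpa library. Each passed as well in other fits that left out 1 library. Next among the named transcripts was a match of prickle, a planar polarity protein, with 42.3 ± 5.83 CPM at FR 3 hpa and 16.9 ± 1.84 CPM at FR 0 hpa. At the oral face it had 29.5 ± 1.25 CPM at HR 3 hpa and 19.3 ± 2.79 CPM at HR 0 hpa (difference 0.71, adjusted p = 0.0419).

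The differences of other named genes did not pass either. *wnt3* was near the limit of detection at the oral face too, at 0.55 ± 0.44 CPM at HR 3 hpa and 0.015 ± 0.030 CPM at HR 0 hpa. The log2 fold change of *wnt3* was 1.47 ± 0.74 at the aboral face and 4.66 ± 1.04 at the oral face, where it was called (adjusted p = 0.00111), and the adjusted p of their difference was 0.62. That of *fos* was 0.44, of *wntless* 0.50 and of the caspase-3 match 0.44.

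**Figure D4:**
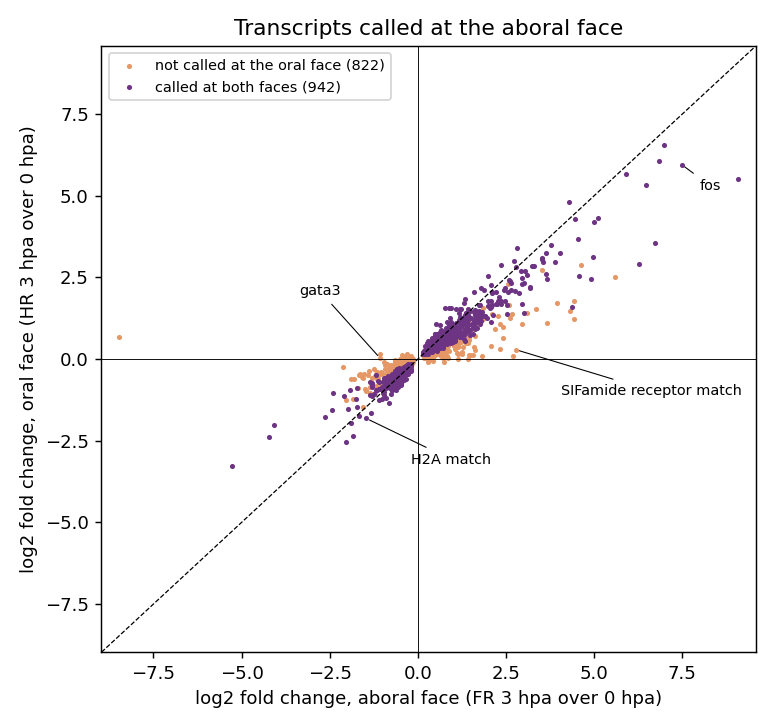
Each point is a transcript called at the aboral face, with its log2 fold change there on the x axis and at the oral face on the y axis, both 3 hpa over 0 hpa. Purple points were called in the same direction at both faces, the dashed line marks equal change, and 921 of 926 rises and 809 of 838 falls lie on the same side of 0 at both faces.

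Later FR libraries of batch 1 show how long the 3 hpa levels lasted, as values only, since every such contrast shares libraries with the one above. *fos* averaged 10.8 ± 1.46 CPM at 12 hpa and 3.51 ± 1.51 CPM at 48 hpa, the AP-1/JUN match 60.9 ± 5.93 and 66.3 ± 1.22 CPM and *creb* 14.8 ± 0.468 and 14.9 ± 1.195 CPM. The AP-1/JUN match and *creb* were back near the 0 hpa level by 12 hpa, while *fos* was still well above its 0 hpa mean of 1.27 ± 0.326 CPM. The MMP24 match was at 120.8 ± 17.5 CPM at 12 hpa and 50.5 ± 12.4 CPM at 48 hpa, while the MMP16 match was as high at 12 hpa (75.8 ± 2.18 CPM) as at 3 hpa (66.7 ± 14.5 CPM). *dlx2* averaged 5.09 ± 0.929 CPM at 12 hpa and 4.80 ± 1.19 CPM at 48 hpa, both above the 0 hpa mean. *gata3* was at 13.1 ± 0.494 CPM at 12 hpa and 10.02 ± 1.00 CPM at 48 hpa, so that the low level was seen at 3 hpa only among these times. The H2A match stayed low, at 25.03 ± 8.05 CPM at 12 hpa and 11.7 ± 4.27 CPM at 48 hpa, as did EMP1, at 16.1 ± 2.04 and 20.1 ± 7.21 CPM.

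**Figure D5:**
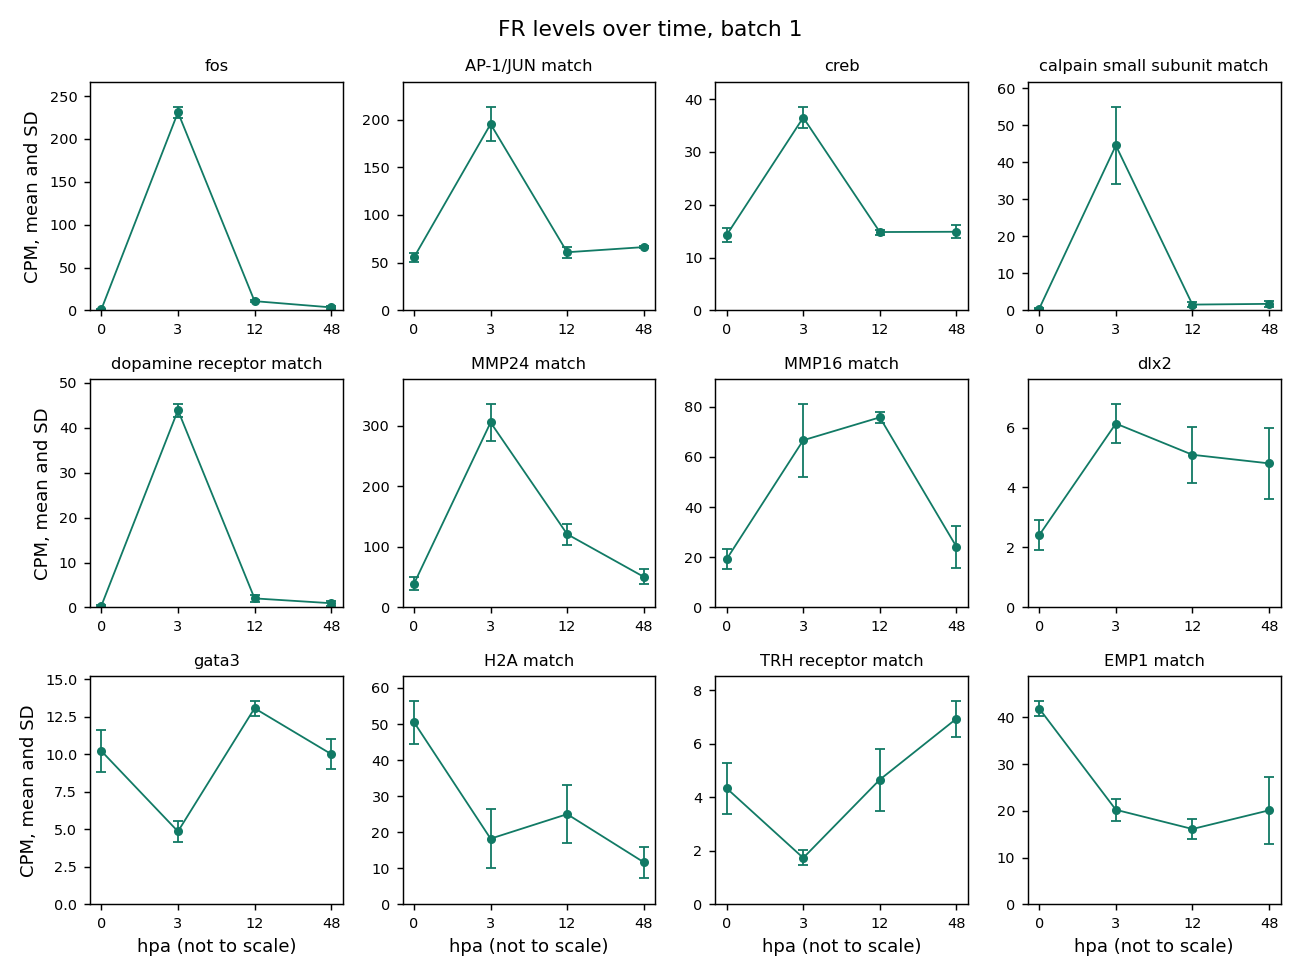
Points are mean levels in CPM with SD at 0 (n = 4), 3, 12 and 48 hpa (n = 3 each) in FR libraries of batch 1, on a time axis that is not to scale. *fos*, the calpain small subunit match and the dopamine receptor match peak at 3 hpa, the MMP16 match is still high at 12 hpa, and *gata3* is lowest at 3 hpa.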

How the data were processed

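The 61 libraries of the series were poly(A) RNA-seq. Per the labels and the study's methods, the authors trimmed the reads, aligned them with Bowtie2 to a transcriptome of another *H. oligactis* strain, the Cold Resistant Swiss strain, and deposited RSEM expected counts and FPKM per transcript. The study corrected batch effects in its own analysis, and the deposited counts were taken here as uncorrected. Between 4.74% and 5.94% of the count values in a library were not whole, and all were rounded. Here edgeR 4.0.16 was used in R 4.3.3, with TMM scaling, filterByExpr and its quasi-likelihood test, on 51 regenerating libraries with 1 term per group, 0 hpa being split by batch. P-values were adjusted by Benjamini-Hochberg over 17037 transcripts, called at an adjusted p under 0.01, and SE is the log2 fold change over the root of F.

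Lists and named transcripts were chosen with earlier results of these data known. Named were the 28 transcripts that the study names; the 12 largest rises and 12 largest falls among called transcripts with a name, a mean of at least 1 CPM and no overlap between groups; up to 4 called members of each list by smallest p; and members of a count of 5 or fewer. The RUNX, COUP, C/EBPβ, CREB3L3, prickle and TMEM175 matches and the transcripts with no annotation were chosen after their values were seen. Alternatives used DESeq2 1.42.0, limma 3.58.1, other scaling, filters and thresholds, and fewer libraries. Of the FPKM table, 4 columns of HR 3 hpa, which has 3 samples, were not used. No columns of the authors' own comparisons were used. P-values measure the spread between these samples only, and counts do not separate close copies, isoforms or strands.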

Additional observations from a re-analysis of the deposited data

Results flagged for a closer look

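In 7 of the 106 transcripts examined for it, 1 of the 4 FR 0 hpa libraries stood far from the other 3 by Dixon's test, which chance alone gives in about 1 of 20 groups. In the first FR 0 hpa library the SynDIG1 match R027236c0g1_i01 was at 4.15 CPM, against 6.91 to 7.24 CPM in the others. In the same library the COX1 match R035908c0g1_i01 was at 27.73 CPM (38.5 to 40.4 in the others) and the FGF12 match R031431c0g1_i01 at 23.78 CPM (30.2 to 31.5 in the others). In the fourth FR 0 hpa library the BAK match R032747c0g1_i01 was at 103.2 CPM (91.2 to 93.0 in the others), the peroxiredoxin PRDX6 match R033986c0g1_i01 at 231.8 CPM (210.4 to 213.9) and the CaMK2 match R033537c0g1_i01 at 96.64 CPM (92.1 to 92.4). *fd4* (R032408c0g1_i01) was at 0 CPM in the second FR 0 hpa library and at 0.0631 to 0.0659 CPM, 1 count each, in the others.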

How the results depend on the processing

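The 926 rises and 838 falls became 472 and 207 with the 7 libraries alone, 663 and 435 with DESeq2 on them, 364 and 132 against a fold of 1.2, 335 and 89 with limma on log2(FPKM + 1), and 1476 and 1571 at an adjusted p under 0.05. No transcript was called in the opposite direction in any of these. The share of calls that were rises was 69.5%, 60.4%, 73.4%, 79.0% and 48.4% under these settings, against 55.8% with DESeq2 size factors. Leaving out 1 library gave 682 to 858 rises and 493 to 784 falls. With all 7 FR 0 hpa libraries and a batch term there were 1061 and 958, where 3 of the batch 1 libraries correlated best with a batch 2 library of 0 hpa in their deviations (r = 0.322, 0.238 and 0.175). With a replicate block on the library numbers, which 6 libraries share, 223 rises and 38 falls were called, against 343 and 118 in those 6 libraries with no block, a setting chosen after seeing the data. Same-number libraries did not stand out, with correlations of 0.073, -0.133 and -0.074, where all pairs ranged from -0.239 to 0.297. The FR 3 hpa library numbers do not match the sample labels, and the groups are small. The correlations therefore cannot decide whether libraries were paired. Under the block 0 of 17 cell cycle and histone members, 0 of 5 stem and germ cell markers and 4 of 9 bZIP members were called.

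At the oral face the calls were 579 and 330 with the 7 HR libraries alone and, leaving out 1 library, 684 to 911 rises and 340 to 584 falls. Between the faces 3 falls were called with no low-count filter and 0 to 3 when 1 library was left out (leave-one-out fits chosen after seeing the data), always with 0 rises. Of the 106 named transcripts 89 were called, 36 of them under every alternative. Signs reversed only for *fd4*, with 0.29 in the fit reported, -0.58 to 0.86 on leaving out 1 library and -0.07 without the second FR 0 hpa library, and for *dlx1*, with -0.04 in the fit reported, 0.03 with the replicate block, 0.03 in its 6 libraries with no block and -0.09 to 0.02 on leaving out 1 library (0.01 without the second FR 0 hpa library), neither of which was called. Low counts limit the Wnt ligands, *fd4*, *kiaa1958* and *sFRP*.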
